A study of Homo sapiens with 6 samples.

Results

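The regions described here are those named for keratin and epidermal barrier genes. A region was a member when the gene name beside it in the deposited tables was KRT followed by digits and an optional letter, began with KRTAP, LCE or SPRR, or was FLG, FLG2, HRNR, IVL, LOR, RPTN or TCHH, at any distance. After repeat rows were removed, 388 of 226920 regions and 111 of 19059 gene names met this rule. The rule used no measured value, though it was chosen with earlier results of these data known. The assay was ATAC-seq, which reads chromatin accessibility from where the Tn5 transposase can cut and tag DNA, and the cells were A375, a long-established line from a human skin melanoma. Cells were given recombinant HMGA1 for 2 h, were given it for 18 h, or were left untreated (mock), with 2 libraries per group that the labels call biological replicates. HMGA1 is an architectural chromatin protein that binds DNA rich in A and T, and the series asks what the added protein does in melanoma cells. The labels give no time for mock, and no mock matched to each time is used here, so time in culture and time with HMGA1 cannot be told apart. Whether the 2 libraries of a group were separate cultures is not said, so p-values reflect only how these libraries vary, which may be technical.

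Keratins build the intermediate filaments of epithelial cells as pairs of 1 type I and 1 type II chain. The type II genes lie together on chromosome 12 and nearly all type I genes on chromosome 17, where they surround genes of keratin-associated proteins (KRTAP), the matrix proteins of the hair shaft. The epidermal differentiation complex on chromosome 1 holds the genes of the cornified envelope, the protein shell of the outermost keratinocytes, among them loricrin, involucrin, the LCE and SPRR families and the filaggrin family. Most of these genes are active in keratinocytes, hair follicles or other epithelia and are not part of the melanocyte programme.

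The member regions lay on 5 chromosomes. The authors' deposited tables place 157 of them on chromosome 12, with 103 on chromosome 17, 57 on chromosome 1, 40 on chromosome 11 and 31 on chromosome 21, the last 2 groups all named for KRTAP genes. By gene class, 156 regions were named for type II keratins, 80 for type I keratins, 95 for KRTAP genes and 57 for genes of the epidermal differentiation complex. Each region spanned 501 bases, so signals refer to equal widths, though equal width alone does not make levels comparable between regions. Of the members, 53 lay within 1 kb of the named gene start. Their mean signal over all 6 libraries (reads scaled by size factors) ran between 4.64 and 1300.2, with a median of 39.0 against 39.3 for all regions. A region counted as tested where its mean signal reached the limit of the authors' filter on low values, below which every adjusted p is listed as 1. That limit was 56.2 for 2 h against mock, was 101 at 18 h against mock and was 41.7 between 18 h and 2 h. Of the 388 members, 94 were tested in all 3 comparisons and 204 in none. Library depths are unknown, and precision is read from the standard errors (SE) in the tables. Copies in several of these families are nearly identical, and how reads that fit several copies were placed was not given in the sources used here, so values of single copies are uncertain.

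Most member calls were of lower accessibility at 18 h than at 2 h. Among 184 tested members, 16 (8.70%) were lower at 18 h than at 2 h and 0 were higher by DESeq2 at an adjusted p under 0.05 (authors' deposited table). Over all 108134 tested regions 2.98% were called lower and 0.498% higher. At an unadjusted p under 0.05, 37 members were lower and 3 higher, against 8.18% and 3.44% of all tested regions. The median log2 fold change was -0.08 over the tested members and 0.01 over all tested regions. At 2 h against mock, 1 of 141 tested members was higher and 0 were lower in the authors' deposited table (DESeq2), and 0.856% and 0.421% of all 86137 tested regions were called in these directions. At an unadjusted p under 0.05, 12 members were higher and 4 lower, against 4.33% and 5.68% of all tested regions. At 18 h against mock, DESeq2 called 0 of 94 tested members in the authors' deposited table, with 0 higher and 17 lower at an unadjusted p under 0.05. Over all 55341 tested regions 0.00542% were called higher and 0.116% lower there, and at an unadjusted p under 0.05 the shares were 0.569% and 7.32%. The member medians were -0.01 at 2 h and -0.18 at 18 h, both against mock, beside -0.06 and -0.07 for all tested regions. These medians depend on the processing. Over all 388 members, tested or not, they were 0.10 at 2 h and 0.00 at 18 h, and after centring on the median tested region those of the tested members were 0.05 and -0.11.

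The 16 regions carried the names of 13 genes. They fell by a median of 1.69-fold, with a range of 1.46-fold to 2.72-fold, and 3 of them fell at least 2-fold. Of these 16, 15 lay within 10 kb of the named start and 2 touched the span of the named gene. All 16 had a positive fold change for 2 h against mock (median 0.41, range 0.18 to 1.20) and a negative one for 18 h against mock (median -0.37, range -0.59 to -0.17) in the authors' deposited tables. Such signs are favoured by how the 16 were picked, since the fall from 2 h to 18 h is the difference of both fold changes. Over all tested regions 32539 of 86137 lay above 0 at 2 h against mock, and 38479 of 55341 lay below 0 at 18 h against mock. The comparisons also share libraries, so the values are set side by side only. Of the 16, 9 had an unadjusted p under 0.05 when 2 h was set against mock, and 7 when 18 h was. Values of single libraries were not used here. The mean signal and both fold changes against mock imply a level for each group, if the fitted group means average to the mean signal, and such levels are given below without an error.

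**Figure D1:**
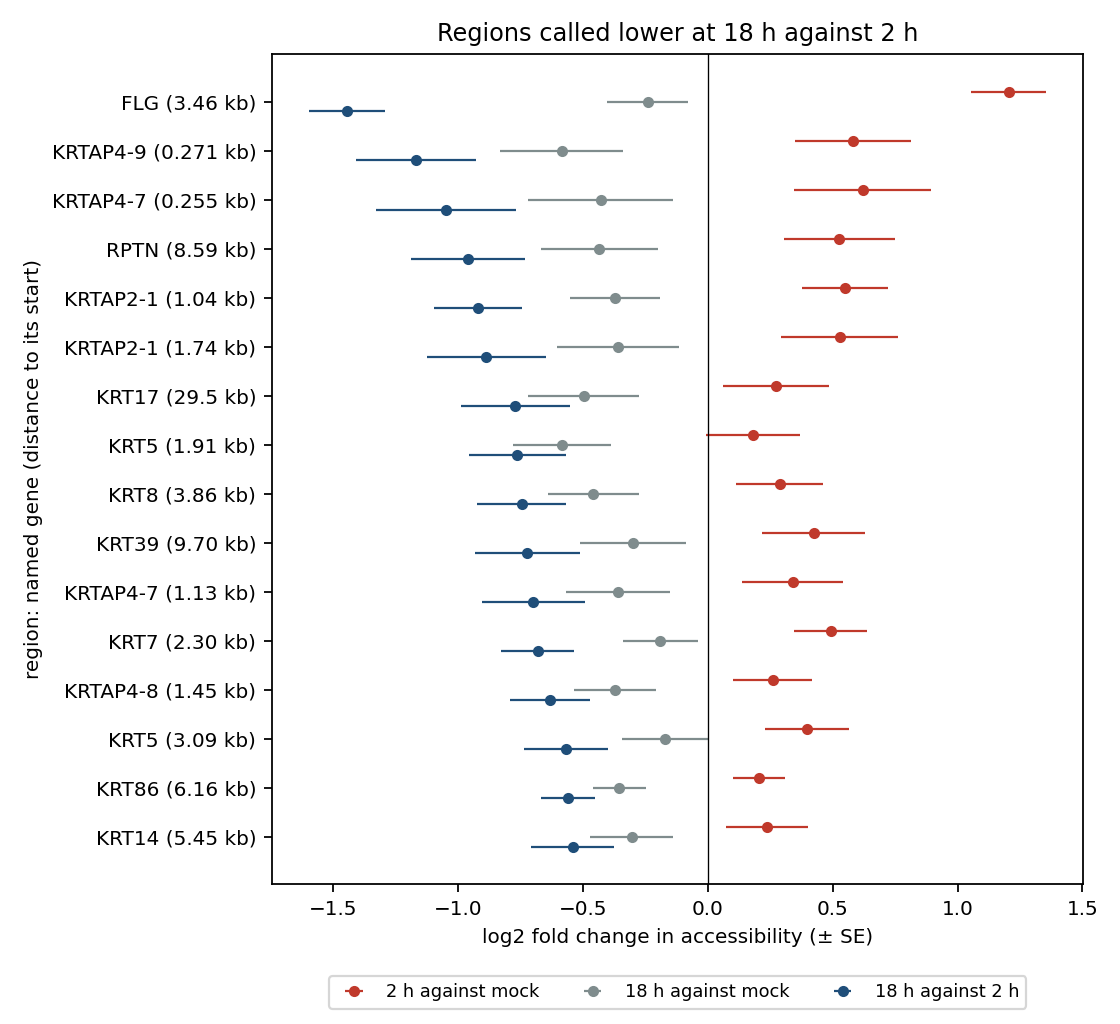
Log2 fold change with its SE (x axis) at the 16 regions called lower at 18 h against 2 h, 1 region per row with the distance to the named gene start, for the 3 deposited comparisons. The FLG region is the lowest in 18 h against 2 h, at -1.45, and all 16 points for 18 h against mock lie below 0.

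**Figure D2:**
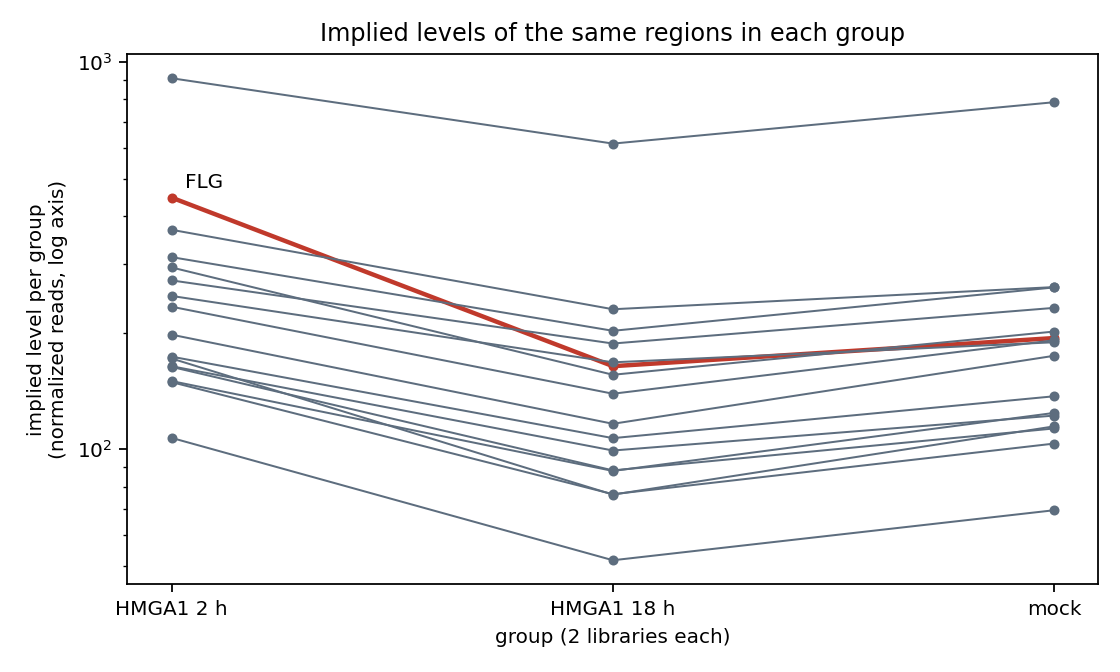
Implied level of each of the 16 regions in each group (y axis, normalized reads, log axis; groups of 2 libraries on the x axis), 1 line per region, with FLG in red. The level is highest at 2 h and lowest at 18 h for all 16, as the signs of the fold changes require.

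The largest change was at FLG, the gene of filaggrin, which bundles keratin filaments in the upper epidermis. A region 3.46 kb upstream of its start (chromosome 1, 152328667 to 152329168), within the span of the non-coding gene CCDST, had an implied level of 446 normalized reads at 2 h, 164 at 18 h and 194 in mock. The 2 h level thus stood apart, and the levels at 18 h and in mock lay close together. In the authors' deposited table its log2 fold change for 18 h against 2 h was -1.45 ± 0.15 (SE; adjusted p = 1.05e-16, DESeq2), a fall of 2.72-fold. It was the member region called higher at 2 h against mock, at 1.20 ± 0.15 (adjusted p = 4.93e-11, DESeq2) in the authors' deposited table, and at 18 h against mock it had -0.24 ± 0.16 (adjusted p = 0.811).

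The region over the FLG start itself was weaker. Its implied levels were 105 normalized reads at 2 h, 87.5 at 18 h and 75.5 in mock, and the authors' deposited tables gave 0.48 ± 0.25 (SE; adjusted p = 0.532, DESeq2) for 2 h against mock and -0.26 ± 0.25 (adjusted p = 0.853) for 18 h against 2 h. Another 4 regions lay inside the FLG span, 16.3 to 21.7 kb from the start, with mean signals of 10.00 to 25.6, and were not tested. Their log2 fold changes for 2 h against mock ran from 1.10 to 1.96, with SE of 0.49 to 0.78, and all 4 were at -1.08 or lower for 18 h against 2 h in the authors' deposited tables. All 6 FLG regions thus had positive values at 2 h and negative ones from 2 h to 18 h, though 1 was called. Both comparisons share the 2 h libraries and 4 of the 6 regions are weak, so these signs are a description and add no support to the call. The tested region of the neighbouring gene FLG2, which encodes a filaggrin-like protein, had -0.19 ± 0.27 at 2 h against mock, and 0.02 ± 0.27 between 18 h and 2 h (adjusted p = 0.911 and 0.997, DESeq2, authors' deposited tables).

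**Figure D3:**
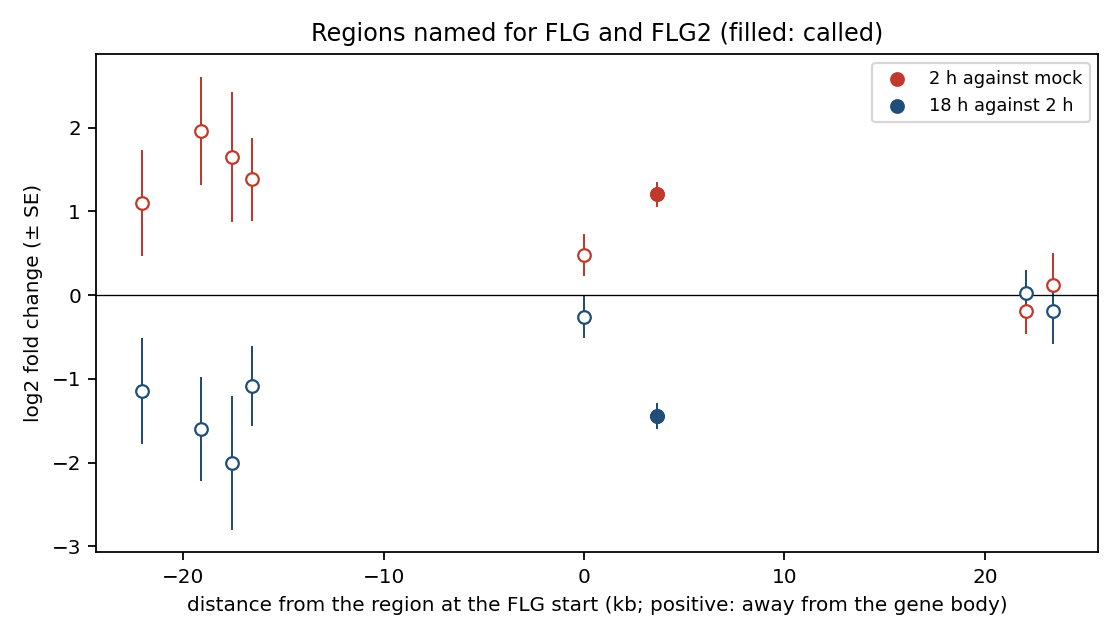
Log2 fold change with its SE (y axis) of the 8 regions named for FLG and FLG2 against their distance in kb from the region at the FLG start (x axis), for 2 h against mock and 18 h against 2 h; filled points were called. The filled pair, just upstream of the start region, stands at 1.20 and -1.45.

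The FLG promoter is shown because the region at the start covers it whole. It is the RefSeq sequence of GRCh38.p14 at chr1:152325190-152325489, minus strand, 250 bases before to 50 after the start. Capitals mark matches on either strand to motifs of 4 kinds. The AP-1 motif was searched as TGANTCA, the motif of TEAD factors as GGAATG, the TATA box as TATAAA, and finally the GC box as GGGCGG.
FLG: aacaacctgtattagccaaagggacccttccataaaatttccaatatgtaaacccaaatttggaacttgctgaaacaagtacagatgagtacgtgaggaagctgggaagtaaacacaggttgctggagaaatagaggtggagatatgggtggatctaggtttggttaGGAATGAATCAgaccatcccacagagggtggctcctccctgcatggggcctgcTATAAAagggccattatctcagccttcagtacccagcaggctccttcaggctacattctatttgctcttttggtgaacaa
It holds 1 match each to the AP-1, TEAD and TATA box motifs, of which the first 2 overlap, and 0 to the GC box. Among all 27305 promoters of the table, 2120 (7.76%) hold the AP-1 motif, 3836 the TEAD motif, 3264 the TATA box and 12174 (44.6%) the GC box. Among the 79 promoters of member genes found there, the AP-1 motif was in 12 (15.2%), the TEAD motif in 14 (17.7%), the TATA box in 55 (69.6%) and the GC box in 8 (10.1%). Such matches are letters only and show no binding.

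Elsewhere in the epidermal differentiation complex, 1 region fell from 2 h to 18 h. It lay 8.59 kb upstream of RPTN, which encodes repetin, a matrix protein of the cornified envelope (chromosome 1, 152167813 to 152168314). Its implied levels were 149 normalized reads at 2 h, 76.6 at 18 h and 103 in mock, and the deposited log2 fold change for 18 h against 2 h was -0.96 ± 0.23 (SE; adjusted p = 0.00226, DESeq2, authors' deposited table). The strongest RPTN region, at 29.7 kb with a mean signal of 448, had 0.06 ± 0.12 there. For HRNR, which encodes the filaggrin-related hornerin, the 3 tested regions had values of -0.28 to -0.14 for 18 h against 2 h and DESeq2 called 0 (authors' deposited table), with 0 at an unadjusted p under 0.05. TCHH, the gene of trichohyalin in the inner root sheath, had its smallest p at 18 h against mock in a region 2.69 kb from its start, at -0.29 ± 0.15 (SE; adjusted p = 0.630, DESeq2) in the authors' deposited table. Over these S100-fused type genes, 2 of 15 tested regions were lower and 0 higher from 2 h to 18 h. Over all tested regions 2.98% were lower and 0.498% higher, and with so few calls the class is not read as differing from these shares.

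The genes of the envelope itself gave few testable regions. Of 15 LCE, 8 SPRR and 10 IVL or LOR regions, 6, 3 and 4 were tested for 18 h against 2 h, and DESeq2 called 0 (authors' deposited table), with 0 at an unadjusted p under 0.05. The LCE region with the highest signal, 30.4 kb from LCE5A, had 0.28 ± 0.21 (SE; adjusted p = 0.752, DESeq2), and the second LCE5A region, at 15.3 kb, had 0.02 ± 0.30 in the authors' deposited table. For SPRR1B, a small proline-rich envelope precursor, the authors' deposited tables gave 0.34 ± 0.18 for 2 h against mock (adjusted p = 0.537, DESeq2) and -0.25 ± 0.18 for 18 h against 2 h (adjusted p = 0.729). A region 9.42 kb from SPRR2F had -0.37 ± 0.17 for 18 h against mock (adjusted p = 0.524, DESeq2, authors' deposited table). All 3 tested SPRR regions lay below 0 from 2 h to 18 h, within -0.25 to -0.21, which is less than 2 SE. IVL, the involucrin gene, had 0.03 ± 0.26 at 1.90 kb from its start, and the tested region 1.64 kb from LOR, the loricrin gene, had -0.43 ± 0.27 (adjusted p = 0.994 and 0.619, DESeq2, authors' deposited table). At the LOR start the mean signals were 15.0 and 27.6, too low to be tested.

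KRTAP genes held 6 of the 16 regions that fell, all in 1 stretch of chromosome 17. Between 41009262 and 41141233, a span of 132 kb, 19 regions were named for the KRTAP3, KRTAP2 and KRTAP4 subfamilies, which encode matrix proteins of hair. Of the 12 tested for 18 h against 2 h, 6 were called lower, 11 had an unadjusted p under 0.05 and all 12 lay below 0, with a median of -0.73 and a range of -1.17 to -0.48 in the authors' deposited table. Over all tested regions 2.98% were called lower there, 8.18% were lower at an unadjusted p under 0.05, and 51971 of 108134 lay below 0. All 19 listed regions, tested or not, lay below 0 in this comparison. For 2 h against mock, 9 of the 10 tested lay above 0, with a median of 0.43, and 18 of all 19 listed. At 18 h against mock all 8 tested lay below 0, with a median of -0.37 in the authors' deposited table. Over all tested regions 38479 of 55341 lay below 0 there, with a median of -0.07, and 32539 of 86137 lay above 0 at 2 h against mock. These shares cover tested regions only and are not to be set beside the counts over all 19. Untested regions can differ, since the median over all 388 members at 2 h against mock was 0.10, beside -0.01 where tested. The grouping of KRTAP3, KRTAP2 and KRTAP4 was chosen after the values were seen. Its regions are neighbours that may share reads, so the counts are a description.

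In the other KRTAP subfamilies, 0 of 27 tested regions were called between 18 h and 2 h (DESeq2, authors' deposited table; 1 higher and 1 lower at an unadjusted p under 0.05), and their median was 0.07. Over all tested regions 2.98% were called lower and 0.498% higher. The KRTAP5 subfamily on chromosome 11 had 9 of 13 tested regions above 0, with a median of 0.07. Of the 12 KRTAP10 regions on chromosome 21, which all lie inside the span of TSPEAR and also carry that name, 2 were tested, at 0.07 ± 0.27 and 0.29 ± 0.28 (SE, authors' deposited table). The difference between the chromosome 17 stretch and the other subfamilies was not tested.

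Within the stretch, the region nearest to KRTAP4-9 changed most. It lay 271 bases upstream of the start by the authors' distance (41104560 to 41105061) and had implied levels of 172 normalized reads at 2 h, 76.4 at 18 h and 115 in mock. In the authors' deposited table it had -1.17 ± 0.24 for 18 h against 2 h (SE; adjusted p = 0.000186, DESeq2). KRTAP4-7 had 2 called regions, at 255 bases and 1.13 kb from its start, with -1.05 ± 0.28 (adjusted p = 0.00974) and -0.70 ± 0.21 (adjusted p = 0.0252, DESeq2) in the authors' deposited table. The first stood at 107 normalized reads at 2 h, 51.7 at 18 h and 69.6 in mock, and the second at 173, 107 and 137 in the same order of groups. For KRTAP4-8 the region at 1.45 kb, the KRTAP region with the highest mean signal (259), had -0.63 ± 0.16 (adjusted p = 0.00541, DESeq2, authors' deposited table). Its implied levels were 313 normalized reads at 2 h, 202 at 18 h and 262 in mock.

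A pair of regions upstream of KRTAP2-1, at 1.04 and 1.74 kb from the start, fell together. The authors' deposited table gave -0.92 ± 0.18 (adjusted p = 3.85e-05) and -0.89 ± 0.24 (adjusted p = 0.0102, DESeq2) for 18 h against 2 h. The first had 295 normalized reads at 2 h, 156 at 18 h and 201 in mock, and the second 163, 88.2 and 113. At 2 h against mock the first had 0.55 ± 0.17, an increase of 1.46-fold that missed the threshold (adjusted p = 0.0814, DESeq2, authors' deposited table).

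**Figure D4:**
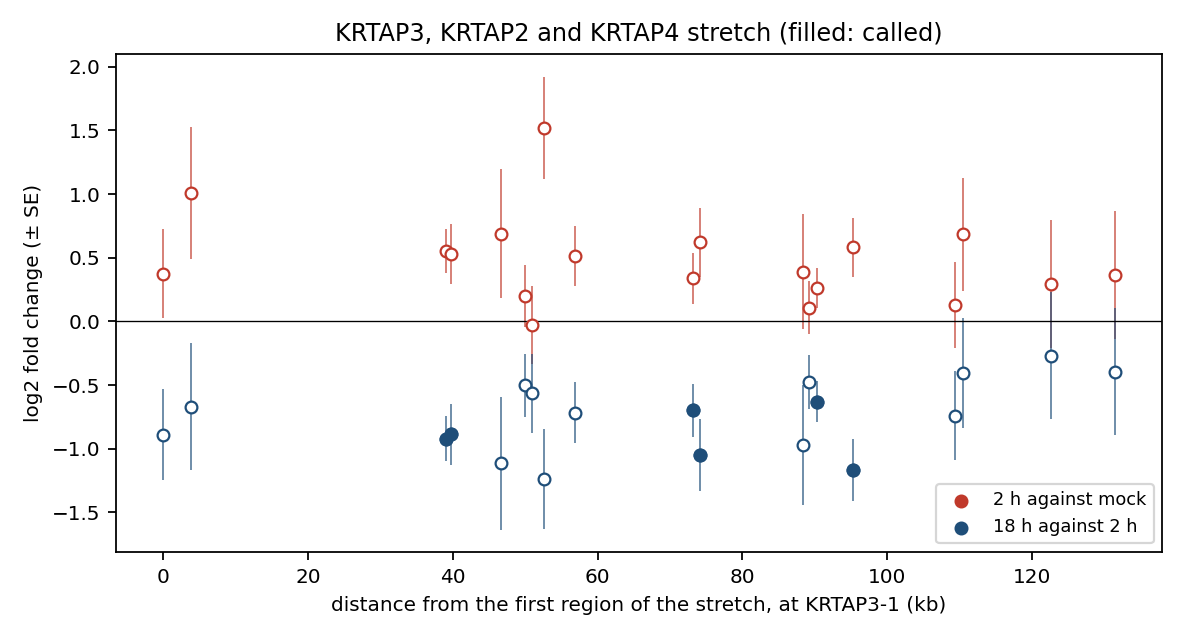
Log2 fold change with its SE (y axis) of the 19 regions of the KRTAP3, KRTAP2 and KRTAP4 subfamilies against the distance in kb from the first of them (x axis), for 2 h against mock and 18 h against 2 h; filled points were called. All 19 points for 18 h against 2 h lie below 0, and 6 are filled.

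The promoters of the 3 KRTAP4 genes with called regions show how alike these copies are. They are RefSeq sequences of GRCh38.p14 at chr17:41083900-41084199 (plus strand), chr17:41098093-41098392 (minus strand) and chr17:41105139-41105438 (plus strand), with capitals as above.
KRTAP4-7: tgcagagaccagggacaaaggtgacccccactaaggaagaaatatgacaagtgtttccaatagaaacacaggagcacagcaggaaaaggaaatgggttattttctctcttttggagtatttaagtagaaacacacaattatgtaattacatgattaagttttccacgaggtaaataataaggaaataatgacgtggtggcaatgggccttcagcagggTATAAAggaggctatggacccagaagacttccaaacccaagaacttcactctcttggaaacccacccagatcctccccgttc
KRTAP4-8: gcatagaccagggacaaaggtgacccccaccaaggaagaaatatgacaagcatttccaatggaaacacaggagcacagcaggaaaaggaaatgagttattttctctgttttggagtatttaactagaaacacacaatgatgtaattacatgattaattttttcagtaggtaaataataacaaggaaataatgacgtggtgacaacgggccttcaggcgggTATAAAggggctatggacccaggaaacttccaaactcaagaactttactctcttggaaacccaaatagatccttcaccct
KRTAP4-9: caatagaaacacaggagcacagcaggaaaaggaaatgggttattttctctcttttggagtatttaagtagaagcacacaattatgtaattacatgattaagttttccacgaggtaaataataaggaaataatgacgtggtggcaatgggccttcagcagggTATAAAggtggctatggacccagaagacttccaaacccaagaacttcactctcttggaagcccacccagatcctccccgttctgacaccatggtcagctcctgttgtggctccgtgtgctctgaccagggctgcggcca
Aligned with free ends, the KRTAP4-7 and KRTAP4-9 promoters were identical at 240 of 243 positions (98.8%), KRTAP4-7 and KRTAP4-8 at 269 of 301 (89.4%) and KRTAP4-8 and KRTAP4-9 at 215 of 245 (87.8%). Each holds 1 TATA box match and 0 matches to the other motifs. The called regions nearest to KRTAP4-7 and KRTAP4-9 end 4 and 77 bases before these windows. The RefSeq start of KRTAP4-9, at 41105389, is not the one behind the authors' distance of 271 bases, so these values come from different annotations. For KRTAP4-8 a weaker region, not tested, overlaps the window by 75 bases. Whether reads that fit several copies enter these values was not tested.

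Type II keratins held 5 regions that fell. Of 82 tested, 5 (6.10%) were lower and 0 higher from 2 h to 18 h (DESeq2, authors' deposited table; 18 and 1 at an unadjusted p under 0.05), with a median of -0.18. Over all tested regions 2.98% were lower and 0.498% higher, with 8.18% and 3.44% at an unadjusted p under 0.05. Whether the type II shares differ from these was not tested. The region with the smallest p was inside the span of KRT86, a hair cortex keratin (chromosome 12, 52280838 to 52281339), 6.16 kb from the start. It stood at 908 normalized reads at 2 h, 615 at 18 h and 787 in mock, so the 2 h level was the highest and the 18 h level the lowest, 1.47-fold apart. The authors' deposited table gave -0.56 ± 0.11 (SE; adjusted p = 3.24e-05, DESeq2) for 18 h against 2 h, and -0.36 ± 0.11 (adjusted p = 0.173) for 18 h against mock. KRT81, KRT83 and KRT86 are close copies, which limits what can be said of KRT86 alone.

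KRT7 and KRT8, keratins of simple epithelia, each held 1 such region. That of KRT7, 2.30 kb from the start (52230309 to 52230810), had 369 normalized reads at 2 h, 229.9 at 18 h and 262 in mock. In the authors' deposited tables it fell by 0.68 ± 0.15 from 2 h to 18 h (SE; adjusted p = 0.000382, DESeq2) and had 0.49 ± 0.14 at 2 h against mock (adjusted p = 0.0515). That of KRT8, 3.86 kb downstream of the start inside the gene (52945511 to 52946012), had 233 normalized reads at 2 h, 139 at 18 h and 191 in mock. The deposited log2 fold change for 18 h against 2 h was -0.75 ± 0.18 (SE; adjusted p = 0.00244, DESeq2, authors' deposited table). By contrast, the open region over the KRT8 start, which also carries the name of its partner KRT18, had 567 normalized reads at 2 h, 581 at 18 h and 551 in mock. It had 0.04 ± 0.10 at 2 h and 0.08 ± 0.10 at 18 h, both against mock, and 0.04 ± 0.10 between 18 h and 2 h (adjusted p = 0.962, 0.961 and 0.977, DESeq2, authors' deposited tables).

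KRT5, the type II keratin of basal keratinocytes, had 2 regions that fell. They lay 1.91 and 3.09 kb upstream of the start (52522601 to 52523102 and 52523776 to 52524277). The first had 198 normalized reads at 2 h, 116 at 18 h and 174 in mock, and the second 249, 168 and 189. In the authors' deposited table their log2 fold changes for 18 h against 2 h were -0.76 ± 0.19 (adjusted p = 0.00541) and -0.57 ± 0.17 (adjusted p = 0.0255, DESeq2). The weaker KRT5 region 439 bases from the start, with a mean signal of 69.4, had -0.09 ± 0.29.

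KRT80, a type II keratin at the edge of the cluster, carried 42 regions, more than any other member gene. Of 26 tested for 18 h against 2 h, KRT80 had 24 below 0, with a median of -0.27 and a range of -1.10 to 0.15, and DESeq2 called 0 (authors' deposited table; 9 lower and 0 higher at an unadjusted p under 0.05). Over all tested regions 51971 of 108134 lay below 0, and 8.18% were lower at an unadjusted p under 0.05. The strongest of all member regions, 44.2 kb from KRT80 with a mean signal of 1300.2, had -0.18 ± 0.08 (SE; adjusted p = 0.269, DESeq2), and the region 95 bases from its start had -0.15 ± 0.10 (adjusted p = 0.657, authors' deposited table). Just outside the threshold were a KRT8 region at 22.2 kb (-0.31 ± 0.10, unadjusted p = 0.00175, with an adjusted p that rounds to the threshold) and a KRT80 region at 19.5 kb (-0.68 ± 0.22, adjusted p = 0.0545, DESeq2, authors' deposited table). The weakest call just inside it was that of KRT14, at an adjusted p of 0.0360.

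Type I keratins held 3 regions that fell, out of 35 tested (8.57%), with 0 higher in the authors' deposited table (DESeq2; 5 lower and 1 higher at an unadjusted p under 0.05) and a median of -0.02. Over all tested regions 2.98% were lower and 0.498% higher, with 8.18% and 3.44% at an unadjusted p under 0.05. Whether the type I shares differ from these was not tested. KRT17, a keratin of hair follicles and wounded epidermis, had -0.77 ± 0.22 (SE; adjusted p = 0.0186, DESeq2, authors' deposited table) at 29.5 kb from its start (chromosome 17, 41654111 to 41654612). Its implied levels were 150.0 normalized reads at 2 h, 87.9 at 18 h and 124 in mock. KRT39, a hair shaft keratin, had -0.72 ± 0.21 (adjusted p = 0.0212, DESeq2, authors' deposited table) at 9.70 kb downstream, with 164 normalized reads at 2 h, 99.3 at 18 h and 122 in mock. KRT14, the type I partner of KRT5, had -0.54 ± 0.17 (adjusted p = 0.0360, DESeq2, authors' deposited table) at 5.45 kb, with 273 normalized reads at 2 h, 188 at 18 h and 232 in mock. A stronger region inside KRT14, with a mean signal of 432, had -0.24 ± 0.12 for 18 h against 2 h and -0.31 ± 0.12 for 18 h against mock (adjusted p = 0.452 and 0.395, DESeq2, authors' deposited tables).

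The strongest type I keratin region, 19.5 kb from KRT19 with a mean signal of 887, had -0.05 ± 0.09 at 2 h against mock, and -0.06 ± 0.09 between 18 h and 2 h in the authors' deposited tables. KRT31, a hair cortex keratin, had a region with -0.33 ± 0.10 for 2 h against mock (adjusted p = 0.0797, DESeq2) and 0.25 ± 0.10 for 18 h against 2 h (adjusted p = 0.209) in the authors' deposited tables, the opposite signs to those of the 16 regions. At the start of KRT15, a keratin of basal cells, a region with a mean signal of 782 had -0.07 ± 0.10 and -0.06 ± 0.10 in these comparisons. The other KRT15 region, at 2.98 kb with a mean signal of 129, had -0.34 ± 0.21 (adjusted p = 0.641) and 0.41 ± 0.21 (adjusted p = 0.432, DESeq2, authors' deposited tables), again with signs opposite to those of the 16 regions. Over the keratins by tissue, regions lower from 2 h to 18 h numbered 2 of 27 tested for simple epithelial, 3 of 15 for epidermal, 1 of 10 for wound or stress, 2 of 16 for hair shaft, 0 of 14 for mucosal or corneal and 0 of 8 for hair follicle sheath keratins in the authors' deposited table (DESeq2; at an unadjusted p under 0.05, 2 lower and 0 higher for the mucosal or corneal and 0 for the sheath keratins). The other keratins, KRT80 among them, had 0 of 27 called, with 9 lower and 0 higher at an unadjusted p under 0.05. Over all tested regions 2.98% were lower (8.18% at that unadjusted p), and with so few regions and calls per class no class is read as differing from that share or from another class.

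**Figure D5:**
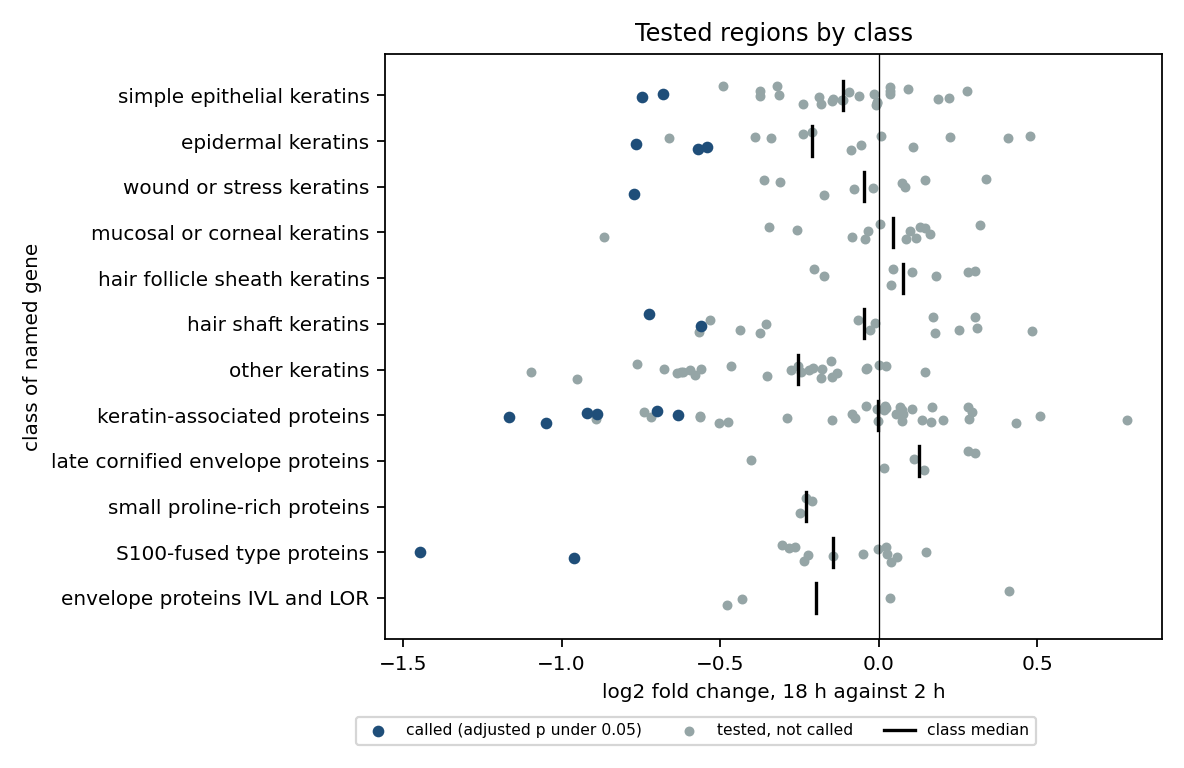
Log2 fold change for 18 h against 2 h (x axis) of the 184 tested member regions by class of the named gene (rows); dark points were called, black bars are class medians. The called points all lie left of 0, and 6 of them are in the KRTAP row.

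The share of regions called lower was also read by distance to the named start and by signal. Of 84 members tested 1 to 10 kb from the named start, 13 (15.5%) were lower at 18 h than at 2 h, while 2.28% of 17046 such regions in the whole series were, in the authors' deposited table. Within 1 kb it was 2 of 21 members, both KRTAP4 genes, and 0.259% of 13501 regions. At 10 to 100 kb it was 1 of 79 members (1.27%) and 3.40% of 47620 regions. By mean signal, members with a signal of 200 or more were lower in 7 of 46 cases (15.2%), those between 100 and 200 in 8 of 48 (16.7%) and weaker ones in 1 of 90 (1.11%), and the shares over all tested regions were 4.95%, 3.90% and 1.37%. These differences in share were not tested, since neighbouring regions are not independent.

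Other genes of the epidermal programme, from a list of 40 genes of which 39 had regions, were read beside the members. Of 210 tested regions, 7 (3.33%) were lower and 0 higher from 2 h to 18 h in the authors' deposited table (DESeq2; 26 and 8 at an unadjusted p under 0.05), with a median of -0.01. This share is near the 2.98% called lower over all tested regions, and nothing about the list is read from it. The called ones with the largest falls were at TGM1, the transglutaminase that cross-links the envelope (-1.23 ± 0.31, adjusted p = 0.00420, at 3.51 kb), and DSC1, a desmosomal cadherin (-1.11 ± 0.35, adjusted p = 0.0414, at 62.8 kb), in the authors' deposited table. Next came a region of CLDN1, a tight junction gene (-0.76 ± 0.21, adjusted p = 0.0124, at 22.6 kb), and one of KLF4, a factor of epidermal differentiation (-0.72 ± 0.21, adjusted p = 0.0293, at 317 kb), in the same deposited table of the authors (DESeq2). Against mock, 1 of 122 tested regions of the list was called lower at 18 h, where 0.116% of all tested regions were. It was named for PKP1, a desmosomal plaque gene, and had -0.39 ± 0.09 (adjusted p = 0.0296, DESeq2, authors' deposited table). At 2 h against mock 1 of 180 was called lower, where 0.421% of all tested regions were. This region, named for KLF4 at a distance of 218 kb, stood at -0.38 ± 0.11 (adjusted p = 0.0490, DESeq2) and then 0.10 ± 0.11 between 18 h and 2 h in the authors' deposited tables, the opposite signs to those of the 16 member regions. The PKP1 region and this KLF4 region were picked after their values were seen.

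The cell label was read against regions near the starts of marker genes. Of 9 melanocyte or melanoma markers, 5 had a region within 1 kb of the start, with mean signals of 63.8 (SOX10) to 705 (ERBB3) and 694 for MITF, the melanocyte master regulator. Of 10 keratinocyte markers 5 had one, with mean signals of 26.9 (KRT14) to 205 (DSC3), and 41.3 for TP63. Regions near these starts were thus listed for both sets, with ranges of signal that overlap, and no count of other cells can be read from it.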

How the data were processed

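ATAC-seq libraries of A375 cells formed 3 groups of 2, taken from the sample titles. Per the submitters' processing notes, the tools were bcl2fastq 2.17, which demultiplexes reads, and DESeq2 (no version named), on build hg38. Not given in the sources used here are the aligner, peak caller, counter and any Tn5 shift. The authors deposited 3 tables of pairwise comparisons, in which 0 columns hold values of 1 library. Each row gives a region, a gene name and distance, the mean signal over 6 libraries (counts divided by size factors), a log2 fold change with SE, the Wald statistic as a score and deposited p-values with adjusted p. Subtracting both deposited fold changes against mock gave that of 18 h against 2 h to within 1.02e-14, as 1 joint fit would. No count model was fitted. Adjusted p was recomputed over all tested regions, 1 row each, and differed from the deposited one by at most 4.99e-14.

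Repeat rows (numeric suffix) were removed, and a region with several member names took the nearest. A call was an adjusted p under 0.05 over the whole table. The implied mock level was 3 times the mean signal divided by the sum of 1 and both folds against mock. All 111 gene names matched RefSeq genes of GRCh38.p14, which gave gene spans; exons and untranslated regions were not analysed here. Distances are the authors'. Coordinates are as deposited, on hg38; whether they count from 0 or 1 was not stated. Named regions were all called ones, plus, per class, the smallest p in each comparison and the highest signal. Start regions (within 1 kb) of 11 genes were added where listed, and KRT7, KRT10 and IVL had none. Those of KRT14 and KRT19, with mean signals of 26.9 and 28.4, were not tested. Also named were 4 called regions of other epidermal genes, largest change first. The HRNR, FLG2, KRT15 and KRTAP10 regions, those inside FLG, the second LCE5A region and those next to the threshold were picked after their values were seen. Members, lists and rules were chosen with earlier results of these data known. Centring and adjustment were tested on simulated data. Python 3.11.15, pandas 2.3.3 and scipy 1.17.1 were used.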

Additional observations from a re-analysis of the deposited data

Results flagged for a closer look

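At 16 regions the cells given HMGA1 for 18 h differed from those given it for 2 h in the authors' deposited table (DESeq2, 18 h against 2 h, adjusted p under 0.05). Both groups are set against the same mock, so this is also the test of the difference between their changes against mock; time in culture and time with HMGA1 cannot be told apart in it. All were lower at 18 h. The log2 differences were -1.45 for FLG, -0.96 for RPTN, -0.56 for KRT86, -0.68 for KRT7, -0.75 for KRT8, and -0.76 and -0.57 for KRT5. On chromosome 17 they were -0.72 for KRT39, -0.92 and -0.89 for KRTAP2-1, -1.05 and -0.70 for KRTAP4-7, -0.63 for KRTAP4-8, -1.17 for KRTAP4-9, -0.54 for KRT14 and -0.77 for KRT17. No group has enough libraries for a test of single samples that stand apart.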

How the results depend on the processing

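Of 57 alternative values of the counts and medians, 51 stayed within 1.5-fold of the count as reported or within the median SE of the median. A limit of 100 kb on distance removed no member, so the 51 include values that could not move. Keeping repeat rows changed little, with 142 tested in place of 141 at 2 h against mock. The median SE is that of a single region, a wide limit for a median over many. The number of members higher at 2 h against mock was 3 after centring on the median tested region, 3 after centring within 20 bins of mean signal and 3 at an adjusted p under 0.10, against 1 as deposited; with centring the added calls were KRT7 (0.55 and 0.57) and KRTAP2-1 (0.61 and 0.62). At an adjusted p under 0.10, 1 member was lower at 2 h. The 16 lower members from 2 h to 18 h became 18 and 17 with the centrings, 13 with no limit on mean signal, 10 at an adjusted p under 0.01 and 21 at one under 0.10. With no limit the median for 18 h against mock was 0.00. That for 2 h against mock, -0.01 as deposited, was 0.10 with no limit and 0.05 and 0.06 with the centrings, so its sign changed. These 3 values lay within the median SE of a single region (0.21), which does not show that the median is stable. Values close to 0 that changed sign, none of them called, were those at 2 h of TCHH (0.01 and 0.02), LCE5A (0.04 and 0.01), IVL (0.05 and 0.02), the KRT80 start (0.05 and 0.09) and KRT19 (0.01 and 0.04), each with the first centring and the second, of KRT14 (0.02 with the second), and that of RPTN at 18 h against mock (0.02 and 0.03); the shift of centre is larger than these values. Leaving out each library was not run, since it needs values per library. No paired analysis was possible because the tables carry no replicate columns.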
